A study of Mus musculus with 10 samples.

Results

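Transcript levels of 32 genes that megakaryocytes and platelets use were examined in bone marrow hematopoietic progenitor cells by RNA sequencing. The 32 genes are a list of named platelet receptors, granule proteins and signalling proteins, found by matching Ensembl identifiers to symbols, and all 32 were among the 38887 genes of the table. Every cell sample came from a mouse bearing Lewis lung carcinoma, a transplantable mouse tumour. Mice of the CK2i group received BMS-595, an inhibitor of the serine/threonine kinase CK2, at 60 mg/kg, and mice of the vehicle group received vehicle alone, each for 2 weeks, with 5 libraries per group. The titles call the vehicle samples untreated. There was no tumour-free group, and the labels give neither the age of the mice nor the markers used to isolate the progenitors, nor whether each library came from a separate mouse. The p-values therefore measure the spread between these libraries, which may be technical in part.

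Megakaryocytes are large polyploid cells of the bone marrow that shed platelets into the blood. They arise from progenitors that also give rise to red cells, under the hormone thrombopoietin and transcription factors such as GATA1, FLI1, RUNX1 and NF-E2. Platelets stick to von Willebrand factor through the GPIb-IX-V complex and to collagen through GPVI. Thrombin and other agonists then switch on the integrin alphaIIb beta3, which binds fibrinogen, and alpha granules release chemokines, adhesive proteins and clotting factors. Some of these genes, among them Itga2b, Vwf and Selp, are also active in stem cells or in endothelium.

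Total estimated counts were 34127674 to 40811539 in CK2i libraries and 37569160 to 43636152 in vehicle libraries. CK2i replicates 2 and 5 stood apart on the first principal component of all genes, at -43.3 and -43.7, where the other CK2i libraries ranged over -12.5 to 4.10 and those of the vehicle group over 9.37 to 29.6. Results are therefore also given without these libraries. Kit, the stem cell factor receptor, was at 225 ± 19.2 CPM in CK2i libraries and 269 ± 16.0 CPM in vehicle libraries (SD, n = 5 each). Cd34, another progenitor marker, was at 197 ± 14.8 CPM in CK2i libraries and 179 ± 29.4 CPM in vehicle libraries. Both were present, as the label of progenitors implies, but they alone do not identify the cells. Levels per library are CPM, counts scaled to library size with TMM factors, and levels compared between genes are FPKM, which divides by transcript length.

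All 32 genes passed the filter on low counts, so none was left out of the tests. In CK2i libraries 8 of the 32 genes fell and none rose in edgeR's quasi-likelihood test at an adjusted p under 0.05. The 8 were Pdzk1ip1, Thbs1, Ppbp, Treml1, Cd226, Gp9, Alox12 and Rap1b, by 0.47 to 0.93 on the log2 scale. Of all 14346 genes tested, 6.76% fell and 6.43% rose, against 25.0% of the 32 that fell. The log2 difference was below 0 for 31 of the 32 genes, where 50.2% of all genes tested were below 0, and the median was -0.48 for the 32 and -0.00 for all genes tested. The 32 genes were chosen with earlier results of these data known, so these contrasts describe the list and do not test it. No gene reached a fall of 2-fold. The unadjusted p was under 0.05 for 21 of the 32, all lower in CK2i. For this and the later counts by unadjusted p the share of all genes was not computed, so they cannot be set against it. The same holds for the counts below 0 in all later fits. The calls depended on the libraries used: with CK2i replicates 2 and 5 left out, none of the 32 passed in edgeR, against 0.699% of all genes called lower, while 11 had an unadjusted p under 0.05 and the median was -0.29. With 1 surrogate variable in the model, itself correlated with the group at 0.70, none passed either (0.105% of all genes were called lower), 1 had an unadjusted p under 0.05, 18 of the 32 were below 0 and the median was -0.04.

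The levels spanned a wide range between genes. Pf4, the chemokine platelet factor 4, was highest at 873 ± 288 FPKM in CK2i libraries and 1425 ± 297 FPKM in vehicle libraries (SD, n = 5 each), and among the 14346 tested genes it ranked 167 by mean FPKM in CK2i libraries and 110 in vehicle libraries. Ppbp, the precursor of the platelet chemokine CXCL7, followed at 466 ± 135 FPKM in CK2i libraries and 787 ± 196 FPKM in vehicle libraries, and Itga2b, the integrin chain alphaIIb or CD41, at 257 ± 80.1 FPKM in CK2i libraries and 354 ± 62.2 FPKM in vehicle libraries. At the low end stood Mylk, myosin light chain kinase, at 8.24 ± 1.93 FPKM in CK2i libraries and 10.2 ± 1.26 FPKM in vehicle libraries, and Gp1ba, the von Willebrand factor binding chain of the GPIb-IX-V complex, at 9.87 ± 2.51 FPKM in CK2i libraries and 14.9 ± 3.39 FPKM in vehicle libraries. In vehicle libraries 14 of the 32 genes were among the top 10% of tested genes by FPKM. Many neighbours in this order differed by less than their spread, such as Thbs1 at 145 ± 42.7 FPKM in CK2i libraries and 251 ± 40.8 FPKM in vehicle libraries and Plek at 175 ± 48.7 FPKM in CK2i libraries and 251 ± 43.4 FPKM in vehicle libraries. The order was nearly the same in both groups: 2 genes, Pdzk1ip1 and Nbeal2, moved by more than 3 places.

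**Figure D1:**
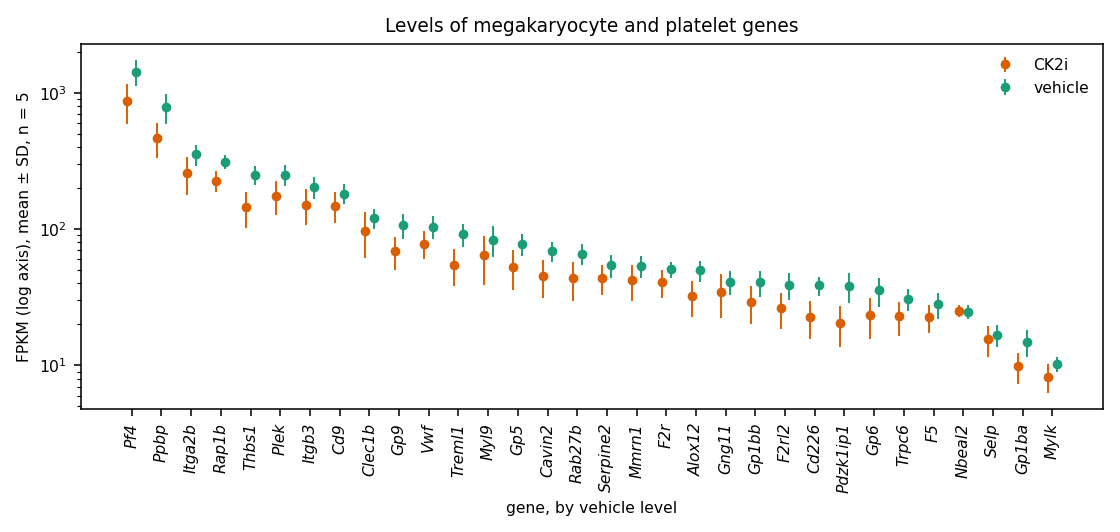
Mean FPKM (log axis, error bars SD, n = 5 libraries) of the 32 genes in CK2i and vehicle libraries, ordered by the vehicle level. Pf4 stands highest at 873 and 1425 FPKM and Mylk lowest at 8.24 and 10.2 FPKM, and the CK2i mean lies under the vehicle mean for 31 genes, with Nbeal2 the exception.

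Most of the 32 genes varied together from library to library, within each group as well as between groups, while Nbeal2 varied little. Their summed level was 7926, 4843, 9305, 6482 and 5438 CPM in CK2i replicates 1 to 5, against 10013, 7771, 11520.3, 8712 and 11456 CPM in vehicle replicates 1 to 5. The CK2i libraries thus ran over a wide range that overlapped the vehicle libraries, with CK2i replicate 3 above vehicle replicates 2 and 4 and CK2i replicate 1 just above vehicle replicate 2. CK2i replicate 2 was the lowest of its group for 27 genes, and CK2i replicate 2 or 5 was the lowest of all 10 libraries for 31, while CK2i replicate 3 was the highest of its group for 26. In the vehicle group, replicate 2 was the lowest for 27 genes, and replicate 3 or replicate 5 was the highest for 17 and 13 genes. The highest library held a median of 2.00 times the lowest within the CK2i group and 1.59 times within the vehicle group. Of the 32 genes, 31 lay below all vehicle libraries in CK2i replicate 2, 30 in CK2i replicate 5, 26 in CK2i replicate 4, 13 in CK2i replicate 1 and 2 in CK2i replicate 3. For these counts by library the share of all genes was not computed. CK2i replicates 2 and 5 also stood apart over all genes. On the first principal component of all genes CK2i replicate 3, at 4.10, lay nearest the vehicle libraries. The counts and the order of the CK2i libraries thus need not be particular to the 32. Only Cd226 had all 5 CK2i libraries below all vehicle libraries, which is 3.12% of the 32 genes against 5.76% of all genes tested. In bulk samples, fewer cells of a type and less RNA per cell cannot be told apart.

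**Figure D2:**
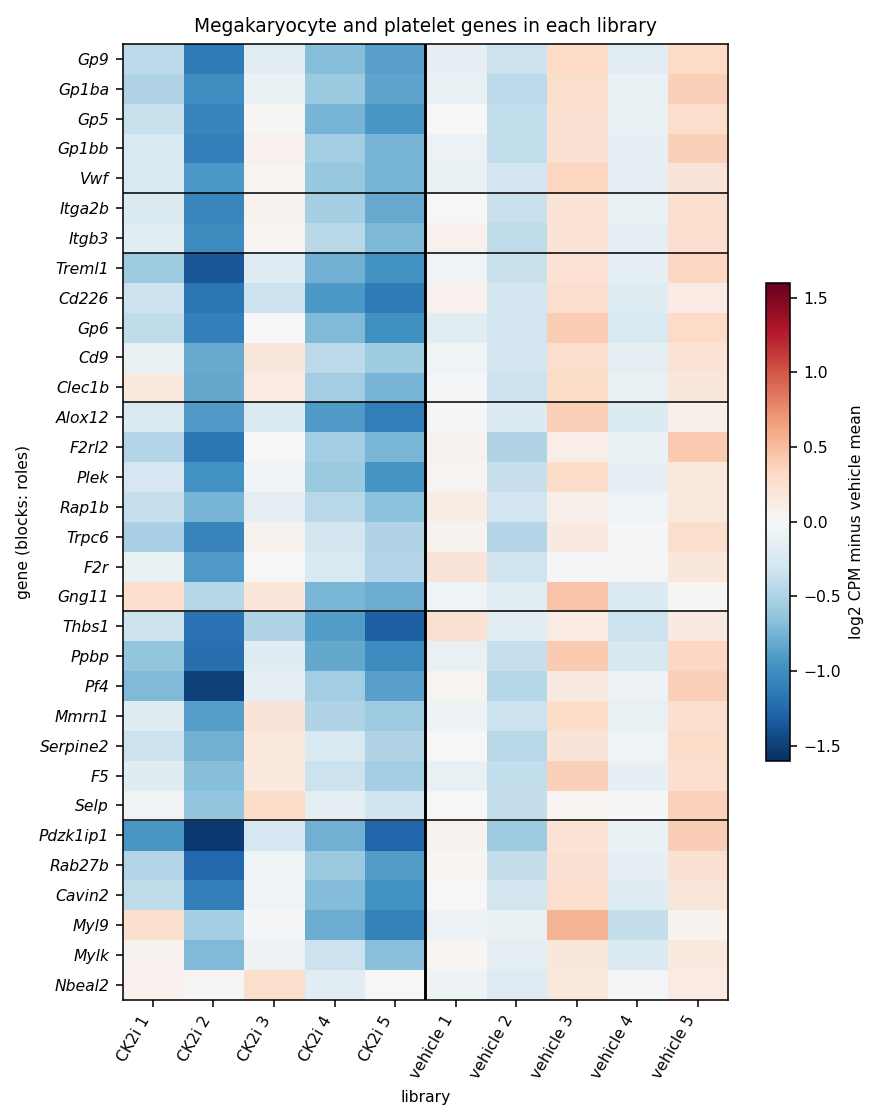
Log2 CPM of each gene minus its vehicle mean, with genes in blocks by role and 1 column per library, CK2i at left and vehicle at right. CK2i replicates 2 and 5 are blue for nearly all genes, below every vehicle library for 31 and 30 of them, while CK2i replicate 3 has a median of 0.00. CK2i replicates 2 and 5 also stood apart over all genes, whose share below every vehicle library was not computed.

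The GPIb-IX-V complex captures von Willebrand factor under shear and is made by megakaryocytes from the genes Gp1ba, Gp1bb, Gp9 and Gp5. Of these and of Vwf, Gp9 alone fell. Gp9, the GPIX chain (ENSMUSG00000030054; GRCm38 chromosome 6, 87778072 to 87779768), stood at 50.7, 30.9, 60.1, 42.2 and 37.2 CPM in CK2i replicates 1 to 5, against 61.9, 54.0, 85.0, 60.1 and 84.8 CPM in vehicle replicates 1 to 5. Its CK2i replicate 3 lay within the vehicle range, and 4 of the 5 CK2i libraries lay below the whole of it, CK2i replicate 2 the lowest. The fall was 0.65 ± 0.19 on the log2 scale (SE, edgeR adjusted p = 0.0450), and it was called in 2 of the 10 fits made without 1 library. Gp1ba (ENSMUSG00000050675; GRCm38 chromosome 11, 70639122 to 70642036) had 25.6, 17.9, 33.3, 23.8 and 19.8 CPM in CK2i replicates 1 to 5, against 32.9, 26.7, 43.4, 33.1 and 46.5 CPM in vehicle replicates 1 to 5, and 4 of its CK2i libraries were also below the vehicle range. Its log2 difference of -0.60 ± 0.18 just missed the threshold (edgeR adjusted p = 0.0533). Gp5, which thrombin cleaves, was at 75.6 to 159 CPM in CK2i libraries and 119 to 190.3 CPM in vehicle libraries, a difference of -0.58 ± 0.20 (edgeR adjusted p = 0.0729). Gp1bb, the chain joined to GPIb alpha by disulfide bonds, was at 31.5 to 70.4 CPM in CK2i libraries and 51.0 to 87.6 CPM in vehicle libraries, a difference of -0.49 ± 0.21 (edgeR adjusted p = 0.127). The Gp1bb gene overlaps annotated exons of Sept5 and the gene Gm49601 on the same strand, so its reads are uncertain. The ligand gene Vwf, which endothelial cells also express, had 668, 419, 816, 519 and 470.3 CPM in CK2i replicates 1 to 5, against 735, 641, 1002, 712 and 911 CPM in vehicle replicates 1 to 5. The groups overlapped through CK2i replicates 1 and 3, and the difference was -0.47 ± 0.18 (edgeR adjusted p = 0.0999). Per length, Gp9 was the highest of the 4 complex genes at 68.7 ± 18.3 FPKM in CK2i libraries and 107 ± 22.8 FPKM in vehicle libraries and Gp1ba the lowest at 9.87 ± 2.51 FPKM in CK2i libraries and 14.9 ± 3.39 FPKM in vehicle libraries, in the same order in both groups, with Gp5 at 52.6 ± 17.1 FPKM in CK2i libraries and 78.2 ± 14.4 FPKM in vehicle libraries.

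The windows of 250 bases before the RefSeq starts of 3 genes of this complex are shown, with that of the most abundant gene, Pf4, because GATA and ETS motifs are known features of megakaryocyte promoters. They are from the GRCm38.p6 build, read 5′ to 3′ on the strand of the gene, and none holds an annotated exon. Capitals mark matches to the GATA motif (AGATAA or AGATAG, and TGATAA or TGATAG) or the ETS motif (AGGAAG or CGGAAG) on either strand.
Gp9, chr6:87777820-87778069, plus strand: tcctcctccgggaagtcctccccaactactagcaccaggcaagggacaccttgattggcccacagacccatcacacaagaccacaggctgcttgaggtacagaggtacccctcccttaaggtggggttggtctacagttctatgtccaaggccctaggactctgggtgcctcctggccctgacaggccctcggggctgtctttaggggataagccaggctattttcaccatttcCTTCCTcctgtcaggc
Gp1ba, chr11:70638872-70639121, plus strand: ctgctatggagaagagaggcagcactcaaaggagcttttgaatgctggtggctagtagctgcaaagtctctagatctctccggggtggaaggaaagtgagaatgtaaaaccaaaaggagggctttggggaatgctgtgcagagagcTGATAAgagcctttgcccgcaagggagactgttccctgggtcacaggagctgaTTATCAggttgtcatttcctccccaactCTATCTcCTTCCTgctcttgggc
Gp5, chr16:30310782-30311031, minus strand: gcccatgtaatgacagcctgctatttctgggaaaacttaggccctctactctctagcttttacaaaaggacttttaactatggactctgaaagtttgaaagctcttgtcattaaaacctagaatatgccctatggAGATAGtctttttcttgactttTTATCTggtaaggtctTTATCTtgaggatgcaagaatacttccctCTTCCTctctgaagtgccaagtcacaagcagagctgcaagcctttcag
Pf4, chr5:90772185-90772434, plus strand: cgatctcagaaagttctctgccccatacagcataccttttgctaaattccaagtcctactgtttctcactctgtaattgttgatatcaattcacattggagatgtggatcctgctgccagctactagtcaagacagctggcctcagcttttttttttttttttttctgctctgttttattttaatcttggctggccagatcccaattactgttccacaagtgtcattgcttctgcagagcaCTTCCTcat
The Gp1ba and Gp5 windows hold 3 GATA matches and 1 ETS match each, whereas the Gp9 and Pf4 windows hold 1 ETS match and no GATA match. The ETS match starts 16 bases before the start in both Gp9 and Gp1ba, and 9 bases before it in Pf4. Windows were given for 26 of the 32 genes. A GATA match was in 7 of them (26.9%), against 27.1% of 27025 promoter windows of mouse genes, and an ETS match was in 14 (53.8%), against 39.0%. A match to the RUNX motif (TGTGGT, either strand) was in 3 (11.5%), against 14.2%. Both a GATA and an ETS match were in the windows of Gp1ba, Gp1bb, Gp5 and F2rl2 (15.4%), against 9.4% of all windows, and no GATA match overlapped an ETS match in any of the 26. Among the 8 genes that fell, 6 had a window, of which 2 held an ETS match, Gp9 and Rap1b, and none a GATA match.

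The fibrinogen receptor is made of Itga2b and Itgb3, of which Itgb3, the beta3 chain, also pairs with the alphaV chain in other cells. Itga2b (ENSMUSG00000034664; GRCm38 chromosome 11, 102453297 to 102470122) had 861, 491, 1055, 699 and 576 CPM in CK2i replicates 1 to 5, against 1003, 786, 1180.4, 935 and 1212 CPM in vehicle replicates 1 to 5. CK2i replicates 1 and 3 lay inside the vehicle range and the other 3 CK2i libraries below it. The log2 difference was -0.47 ± 0.20 and did not pass (edgeR adjusted p = 0.114). Itgb3 was at 556 to 1159 CPM in CK2i libraries and 852 to 1358 CPM in vehicle libraries, a difference of -0.43 ± 0.19 that did not pass (edgeR adjusted p = 0.136), and the 5 CK2i libraries had the same order for Itgb3 as for Itga2b.

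Receptors that signal through tyrosine motifs or mediate contact fell in 2 of 5 genes, and none rose. Treml1, a receptor stored in alpha granules and brought to the surface on activation (ENSMUSG00000023993; GRCm38 chromosome 17, 48359916 to 48367176), had 66.0, 37.7, 84.5, 57.4 and 49.8 CPM in CK2i replicates 1 to 5, against 93.2, 76.5, 115, 88.0 and 123 CPM in vehicle replicates 1 to 5. It fell by 0.75 ± 0.20 (edgeR adjusted p = 0.0375), with 4 CK2i libraries below all vehicle libraries and CK2i replicate 3 inside their range. Cd226, an adhesion receptor also found on T and NK cells (ENSMUSG00000034028; GRCm38 chromosome 18, 89176967 to 89272229), had 52.1, 29.4, 51.9, 34.6 and 30.0 CPM in CK2i replicates 1 to 5, against 69.0, 53.8, 79.7, 57.5 and 72.0 CPM in vehicle replicates 1 to 5. Its highest CK2i library was just under its lowest vehicle library, so that the groups did not overlap. The fall was 0.74 ± 0.18 (edgeR adjusted p = 0.0302), and it was called in 4 of those 10 fits. Gp6, the collagen receptor GPVI, was at 16.0 to 34.4 CPM in CK2i libraries and 28.1 to 45.6 CPM in vehicle libraries, a difference of -0.61 ± 0.22 (edgeR adjusted p = 0.0793). Clec1b, the podoplanin receptor CLEC-2, had 116, 59.0, 115, 70.7 and 62.3 CPM in CK2i replicates 1 to 5, against 103, 82.5, 128, 96.6 and 118 CPM in vehicle replicates 1 to 5. CK2i replicates 1 and 3 were above the vehicle mean for this gene and the other 3 were below the vehicle range, and the difference of -0.32 ± 0.21 did not pass (edgeR adjusted p = 0.294). Clec1b overlaps Clec9a on the same strand in the annotation. Cd9, a tetraspanin abundant on platelets and many other cells, had 169.6, 105, 209, 138 and 125 CPM in CK2i replicates 1 to 5, against 177, 150.0, 225, 166 and 214 CPM in vehicle replicates 1 to 5. Its CK2i replicates 1 and 3 lay inside the vehicle range and the other 3 below it, and the difference was -0.32 ± 0.18 (edgeR adjusted p = 0.218).

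Of 7 genes for thrombin receptors and signalling, Rap1b and Alox12 fell. Rap1b, the small GTPase that links receptor signals to integrin activation (ENSMUSG00000052681; GRCm38 chromosome 10, 117813871 to 117846035), had 447, 346, 520.0, 425 and 365 CPM in CK2i replicates 1 to 5, against 629, 469, 613, 550.1 and 645 CPM in vehicle replicates 1 to 5. It varied least between libraries of the CK2i group among the 8 genes that fell, at 420.5 ± 69.5 CPM in CK2i libraries and 581 ± 72.2 CPM in vehicle libraries (SD, n = 5 each), and fell by 0.47 ± 0.12 (edgeR adjusted p = 0.0322). Rap1b is expressed in most blood cells. Alox12, the platelet 12-lipoxygenase that makes 12-HETE from arachidonic acid (ENSMUSG00000000320; GRCm38 chromosome 11, 70241457 to 70255353), had 114, 71.2, 115, 71.0 and 61.8 CPM in CK2i replicates 1 to 5, against 131, 115, 174, 115 and 141 CPM in vehicle replicates 1 to 5. Of its CK2i libraries replicate 3 alone reached the vehicle range, and the fall was 0.64 ± 0.19 (edgeR adjusted p = 0.0477). The receptors themselves did not pass. F2rl2, PAR3, a cofactor for thrombin on mouse platelets, was at 39.8 to 89.3 CPM in CK2i libraries and 63.3 to 119 CPM in vehicle libraries, a difference of -0.56 ± 0.20 (edgeR adjusted p = 0.0839), and it lies within Iqgap2 on the opposite strand. F2r, PAR1, which mouse platelets lack and other cells carry, was at 84.0 to 158 CPM in CK2i libraries and 126 to 183 CPM in vehicle libraries, a difference of -0.33 ± 0.16 (edgeR adjusted p = 0.162). Plek, pleckstrin, the major protein kinase C substrate of platelets, was at 493 to 930.1 CPM in CK2i libraries and 750.0 to 1190.2 CPM in vehicle libraries, a difference of -0.54 ± 0.18 (edgeR adjusted p = 0.0696). Trpc6, a calcium-permeable channel, was at 41.8 to 90.7 CPM in CK2i libraries and 63.0 to 106 CPM in vehicle libraries (log2 -0.43 ± 0.19, edgeR adjusted p = 0.126). Gng11, a G protein gamma subunit, was at 16.6 to 34.8 CPM in CK2i libraries and 25.0 to 39.6 CPM in vehicle libraries (log2 -0.26 ± 0.22, edgeR adjusted p = 0.434), and its CK2i replicates 1 and 3 lay inside the vehicle range.

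Of 7 genes for granule cargo, Thbs1 and Ppbp fell. Thbs1, the adhesive matrix protein thrombospondin 1 (ENSMUSG00000040152; GRCm38 chromosome 2, 118111876 to 118127133), had 1107, 612, 999.7, 750.2 and 564 CPM in CK2i replicates 1 to 5, against 1651, 1234, 1529, 1094 and 1531 CPM in vehicle replicates 1 to 5. CK2i replicate 1 alone lay above the lowest vehicle library, and the fall was 0.80 ± 0.19 (edgeR adjusted p = 0.0269), called in 5 of the 10 fits without 1 library, the most of the 32 genes. Ppbp (ENSMUSG00000029372; GRCm38 chromosome 5, 90768518 to 90770063) had 454, 305, 617, 399 and 349.8 CPM in CK2i replicates 1 to 5, against 648, 546, 938, 587 and 885 CPM in vehicle replicates 1 to 5. Here CK2i replicate 3 lay within the vehicle range, the other 4 CK2i libraries lay below it, and the gene fell by 0.76 ± 0.20 (edgeR adjusted p = 0.0385). Its neighbour on the chromosome, Pf4 (ENSMUSG00000029373; GRCm38 chromosome 5, 90772435 to 90773383), had 362, 209, 534, 399.5 and 323 CPM in CK2i replicates 1 to 5, against 605, 427, 648, 550.0 and 768 CPM in vehicle replicates 1 to 5. It too had 4 CK2i libraries below the vehicle range, and its difference of -0.71 ± 0.22 just missed the threshold (edgeR adjusted p = 0.0535). The other 4 cargo genes did not pass. Mmrn1, multimerin 1, which binds factor V, was at 123 to 261 CPM in CK2i libraries and 178 to 277 CPM in vehicle libraries (log2 -0.36 ± 0.19, edgeR adjusted p = 0.202), and F5, coagulation factor V, at 125 to 222 CPM in CK2i libraries and 153 to 261 CPM in vehicle libraries (log2 -0.32 ± 0.18, edgeR adjusted p = 0.219). Serpine2, a thrombin inhibitor, was at 64.2 to 123 CPM in CK2i libraries and 80.1 to 134 CPM in vehicle libraries, a difference of -0.32 ± 0.17 (edgeR adjusted p = 0.207). Selp, P-selectin of granule membranes and endothelium, had 49.1, 33.4, 63.0, 46.1 and 40.9 CPM in CK2i replicates 1 to 5, against 51.3, 39.4, 52.1, 50.7 and 65.9 CPM in vehicle replicates 1 to 5, and only CK2i replicate 2 was below all vehicle libraries. Its difference of -0.16 ± 0.16 was the smallest below 0 (edgeR adjusted p = 0.520).

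The last group takes in genes of granule formation, membrane and contraction, of which Pdzk1ip1 alone fell. Pdzk1ip1, a small membrane protein that binds PDZ domain proteins (ENSMUSG00000028716; GRCm38 chromosome 4, 115088708 to 115093899), had 14.0, 9.12, 21.9, 15.6 and 11.0 CPM in CK2i replicates 1 to 5, against 27.6, 17.9, 31, 24.8 and 34.9 CPM in vehicle replicates 1 to 5. CK2i replicate 3 lay within the vehicle range and the other 4 below it, and the fall of 0.93 ± 0.23 was the largest of the 32 genes (edgeR adjusted p = 0.0325). Rab27b, a GTPase of platelet granules, was at 89.3 to 204 CPM in CK2i libraries and 163 to 253 CPM in vehicle libraries, a difference of -0.62 ± 0.20 (edgeR adjusted p = 0.0599). Cavin2, a coat protein of caveolae, was at 91.2 to 188 CPM in CK2i libraries and 160.4 to 239 CPM in vehicle libraries, a difference of -0.61 ± 0.19 (edgeR adjusted p = 0.0536). Myl9, the regulatory myosin light chain that Mylk phosphorylates, had 90.3, 51.6, 74.2, 43.5 and 35.7 CPM in CK2i replicates 1 to 5, against 71.0, 69.4, 109.8, 58.0 and 78.1 CPM in vehicle replicates 1 to 5. Its highest CK2i library was replicate 1 and not replicate 3, and the difference of -0.39 ± 0.25 did not pass (edgeR adjusted p = 0.289). Mylk was at 47.1 to 80.2 CPM in CK2i libraries and 65.7 to 87.2 CPM in vehicle libraries (log2 -0.32 ± 0.15, edgeR adjusted p = 0.147). Nbeal2, which is needed to form alpha granules, had 120.3, 117, 139.7, 102 and 114 CPM in CK2i replicates 1 to 5, against 109, 100.2, 129, 113 and 126 CPM in vehicle replicates 1 to 5. It was the only gene of the 32 above 0, at 0.04 ± 0.09 (edgeR adjusted p = 0.781), and no CK2i library lay below all vehicle libraries, while CK2i replicate 3 lay above them.

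**Figure D3:**
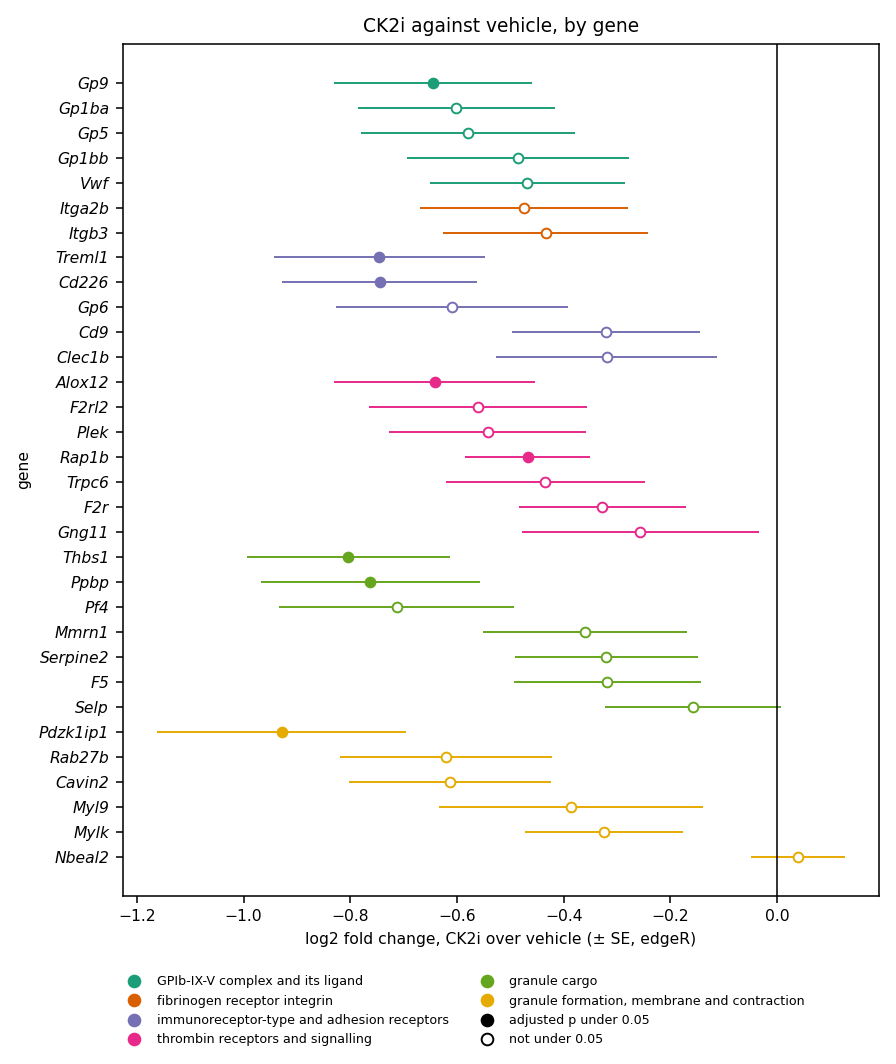
Log2 fold change of CK2i over vehicle for each of the 32 genes (points; bars SE, edgeR), coloured by role, with filled points for an adjusted p under 0.05. The values run from -0.93 for Pdzk1ip1 to 0.04 for Nbeal2, and the 8 filled points are spread over 5 of the 6 roles.

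Among 57 tested genes of a further list with roles in platelets, 8 fell, Cd63 rose, and the median log2 difference was -0.38. Of all genes tested, 6.76% fell and 6.43% rose, and the counts by role above and by list below are to be read beside these shares. In short lists a few genes make up the count. Tubb1, the platelet beta tubulin, had 214, 117, 186, 104 and 85.9 CPM in CK2i replicates 1 to 5, against 279.7, 233, 303, 232 and 249.7 CPM in vehicle replicates 1 to 5, with every CK2i library below every vehicle library, and fell by 0.88 ± 0.23 (edgeR adjusted p = 0.0347). P2ry1, a receptor for ADP, fell by 0.65 ± 0.14 (edgeR adjusted p = 0.0219), and Ly6g6f, a platelet surface protein, by 0.82 ± 0.21 (edgeR adjusted p = 0.0337). Among the others that fell were Pdlim1, Unc13d, Tpm4 and Parvb, Unc13d the least by 0.25 ± 0.07 (edgeR adjusted p = 0.0462). Cd63, a tetraspanin of lysosomes and of granules in several blood cells, rose by 0.69 ± 0.15 (edgeR adjusted p = 0.0213). Of 19 cytoskeleton genes 4 fell, Tubb1, Tuba8, Myl12a and Actg1, and none rose, with a median of -0.06. Without CK2i replicates 2 and 5 none of the 57 and none of the 19 passed in edgeR, and the medians were -0.21 and -0.05.

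Transcription factors of the megakaryocyte and erythroid lineages were lower in 6 of 23 genes, higher in 0, and had a median of -0.17. Gata1, which directs both lineages, had 115, 95.8, 126, 124 and 97.0 CPM in CK2i replicates 1 to 5, against 159.8, 138, 148, 152 and 178 CPM in vehicle replicates 1 to 5, with every CK2i library below every vehicle library. It fell by 0.47 ± 0.09 (edgeR adjusted p = 0.0178) and was called in all 10 fits without 1 library. Nfe2, the NF-E2 subunit needed for platelet release, had 125, 107, 128, 106 and 100.4 CPM in CK2i replicates 1 to 5, against 159.8, 138, 155, 145 and 138 CPM in vehicle replicates 1 to 5, again without overlap, and fell by 0.37 ± 0.07 (edgeR adjusted p = 0.0180; 10 of 10 fits). Gfi1b fell by 0.55 ± 0.12, Ldb1 by 0.32 ± 0.06, Lmo2 by 0.15 ± 0.03 and Mef2c by 0.24 ± 0.07 (edgeR adjusted p = 0.0248, 0.0184, 0.0216 and 0.0451). Fli1 and Runx1 differed by -0.16 ± 0.07 and 0.17 ± 0.08 and did not pass (edgeR adjusted p = 0.141 and 0.157). Of 16 genes of cytokine signalling in this lineage 4 fell, among them Jak2, Stat5a and Stat5b, and none rose, with 9 of the 16 below 0 and a median of -0.04. Jak2, a kinase bound to cytokine receptors, had 157, 149.8, 173, 164 and 165 CPM in CK2i replicates 1 to 5, against 189, 186, 227, 191 and 214 CPM in vehicle replicates 1 to 5, without overlap, and fell by 0.32 ± 0.06 (edgeR adjusted p = 0.0181; 10 of 10 fits). Without CK2i replicates 2 and 5 together none of these transcription factors and signalling genes passed in edgeR, nor with 1 surrogate variable, and the median of the transcription factors without these libraries was -0.12.

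Markers of other cells moved with the treatment as well, and their part in the falls described here was not tested. Neutrophil and promyelocyte markers rose in 11 of 17 genes and fell in none, and their summed level was 6512, 8241, 5056, 5869 and 7829 CPM in CK2i replicates 1 to 5, against 3832, 5507, 4752, 4272 and 2697 CPM in vehicle replicates 1 to 5. CK2i replicates 2 and 5, the lowest for megakaryocyte and platelet genes, were the highest for these markers. In the vehicle group, replicate 2 was the lowest for the platelet sum and the highest for the neutrophil sum. Vehicle replicate 5 was next to the highest for the platelet sum and the lowest for the neutrophil sum. Vehicle replicate 3 was the highest for the platelet sum and next to the highest for the neutrophil sum. Without CK2i replicates 2 and 5 none of these neutrophil markers passed, with a median of 0.51 against 0.84 with all libraries. Monocyte and macrophage markers rose in 5 of 16 tested genes and fell in none, with sums of 1072 to 1862 CPM in CK2i libraries and 754 to 1208 CPM in vehicle libraries. Erythroid markers rose in 6 and fell in 4 of 19 genes, with a median of 0.11. Hbb-bs and Hba-a2 were among those that rose, and Car1 and Car2 among those that fell. The erythroid sum was nonetheless lower on average in CK2i libraries, at 4335 to 5487 CPM, against 4835 to 6493 CPM in vehicle libraries. Endothelial markers fell in 5 of 16 tested genes, Lyve1, Plvap, Stab2, Pecam1 and Eng, of which Lyve1 and Plvap also passed without CK2i replicates 2 and 5, and none with 1 surrogate variable, with sums of 295 to 369 CPM in CK2i libraries and 356 to 401 CPM in vehicle libraries, and stromal markers in 1 of 11, with sums of 104 to 144 CPM in CK2i libraries and 109 to 186 CPM in vehicle libraries. Cdh5, VE-cadherin of endothelium, was at 0.393 ± 0.135 CPM in CK2i libraries and 0.71 ± 0.230 CPM in vehicle libraries. Stem and multipotent progenitor markers fell in 3 of 16 genes, Kit among them, with sums of 1453 to 1552 CPM in CK2i libraries and 1522 to 1643 CPM in vehicle libraries. Lymphoid markers fell in 2 of 8 tested genes, with sums of 346 to 479 CPM in CK2i libraries and 539 to 739.9 CPM in vehicle libraries, and markers of basophils, mast cells and eosinophils rose in 1 and fell in 1 of 9, with sums of 987 to 2781 CPM in CK2i libraries and 981 to 1641 CPM in vehicle libraries. Without CK2i replicates 2 and 5 no marker of the monocyte, stem cell or basophil, mast cell and eosinophil lists passed, erythroid markers rose in 2 and fell in 1, and Col5a1 of the stromal list and Jchain of the lymphoid list were lower. With 1 surrogate variable no gene of any of these lists passed in edgeR. No gene of these lists was at 0 in all libraries. Some genes, among them Tubb1, Tal1, Klf1 and F13a1, stand in more than 1 list.

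**Figure D4:**
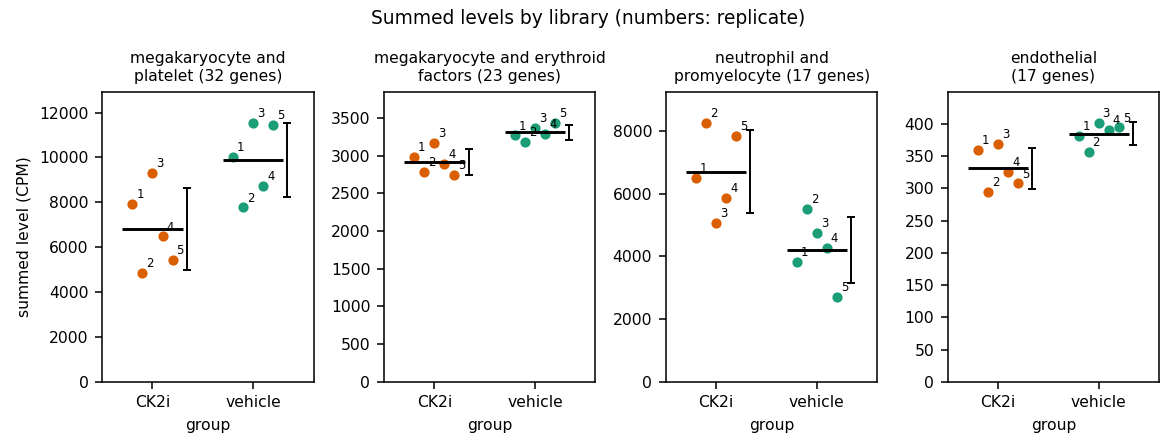
Summed CPM in each library (points, numbered by replicate; line mean, bar SD, n = 5) of the 32 megakaryocyte and platelet genes, of 23 transcription factors of the megakaryocyte and erythroid lineages, of 17 neutrophil and promyelocyte markers and of 17 endothelial markers. The first sum is 4843 to 9305 in CK2i and 7771 to 11520.3 in vehicle libraries, with CK2i replicates 2 and 5 at the bottom, and these libraries are at the top of the neutrophil sum.

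The number of the 32 genes that passed also depended on each single library. It was 6 without CK2i replicate 1 (5.97% of all genes were called lower there), 24 without CK2i replicate 3 (10.2%), 4 without CK2i replicate 4 (5.99%), 10 without vehicle replicate 2 (5.91%) and 1 without vehicle replicate 4 (2.01%). It was 0 in edgeR without CK2i replicate 2 (2.44%), CK2i replicate 5 (1.76%), vehicle replicate 1 (1.91%), vehicle replicate 3 (2.81%) or vehicle replicate 5 (2.09%), where 15 to 18 of the 32 had an unadjusted p under 0.05. In these 10 fits 31 or 32 of the genes had a log2 difference below 0, and the median was -0.65 to -0.39. The share of all genes was not computed in these fits for the counts by unadjusted p or by sign. No gene was called in all 10. DESeq2 called 17 of the 32 lower, against 10.2% of all genes, and no tool called any of them higher: edgeR, DESeq2 and limma each gave 0, and 0 had an unadjusted p under 0.05 with a rise.

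**Figure D5:**
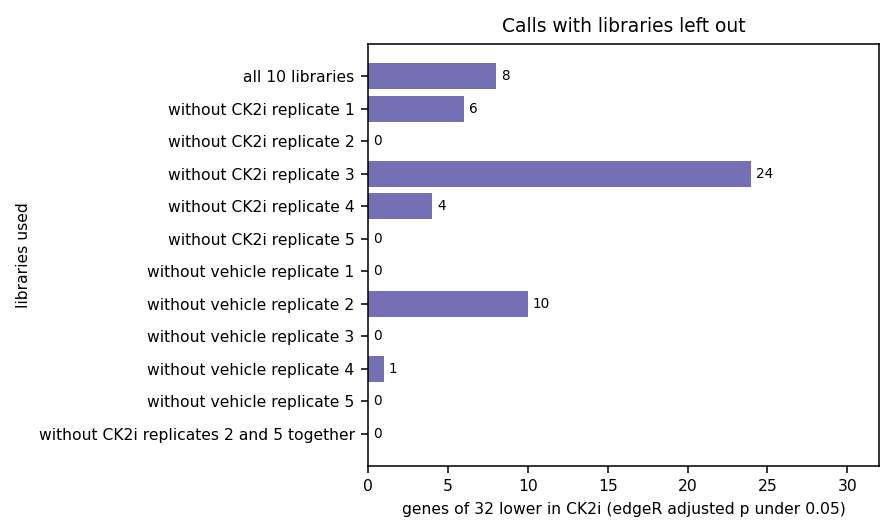
Number of the 32 genes called lower in CK2i (edgeR adjusted p under 0.05, horizontal axis) with all 10 libraries and with the libraries named at left taken out. The count is 8 with all libraries, reaches 24 without CK2i replicate 3 and is 0 in 6 of the other rows.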

How the data were processed

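Total RNA of 10 libraries, made with a stranded kit per the labels, was sequenced with paired reads of 75 bases. Per the submitters' processing notes, Bowtie2, RSEM 1.2.31 and DESeq2 were used with the mm10 build. The deposited estimated counts (whole numbers) and the deposited FPKM values come from these steps by the authors, and whether counting used strand was not stated. Symbols and coordinates came from GENCODE M21 (GRCm38), which matched 37570 of 38887 identifiers.

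Estimated counts were filtered (filterByExpr, minimum count 10), scaled by TMM and tested with edgeR's quasi-likelihood test over 14346 genes, groups alone in the design, with Benjamini-Hochberg adjustment and a threshold of 0.05. The biological coefficient of variation was 14.2%. The SE of a log2 fold change is its size divided by the square root of F. FPKM served for levels between genes and, as log2(FPKM + 1) or log2(FPKM + 0.1), for limma. Alternatives were RLE and upper-quartile scaling, no filter, DESeq2, a replicate block, 1 surrogate variable (sva), and leaving out libraries. The edgeR step was tested on simulated counts. Replicate libraries differed by more than sampling noise. The 32 genes, the other lists and the library pair left out were chosen with earlier results of these data known. The rule was to account for all 32 genes and to name, from each other list, called genes (at most 6). Tpm4, Parvb, Fli1, Runx1, Cd34 and Cdh5 were named outside it after their values were seen, and the other lists were rerun without CK2i replicates 2 and 5, or with the surrogate variable, by a choice made after seeing the data. One gene counted in some of the other lists is not reported here. Promoter windows are from RefSeq (GRCm38.p6).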

Additional observations from a re-analysis of the deposited data

How the results depend on the processing

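With all 10 libraries edgeR called 1892 genes, 8 of the 32 megakaryocyte and platelet genes among them, all lower in CK2i. The count of the 32 was 8 with RLE scaling (1842 genes called in all), upper-quartile scaling (1945) or no filter (1370), and 6 with limma. For these settings the share of all genes called lower was not computed, so the counts cannot be set against it. The totals over all genes were 3176 with DESeq2 (17 of the 32 lower), 1197 and 1223 with limma at pseudocounts of 1 and 0.1, 30 with 1 surrogate variable (0 of the 32) and 175 without CK2i replicates 2 and 5 (0 of the 32). Leaving out 1 library gave 446 to 3198 genes, 0 to 24 of the 32 lower and a median log2 difference of -0.65 to -0.39. The number of the 32 without overlap was 12 without CK2i replicate 3 (37.5%, against 9.17% of all genes). It was 6 without vehicle replicate 2 (18.8%, against 8.3%) and 3 without vehicle replicate 4 (9.38%, against 6.58%). Without CK2i replicate 1 it was 2 (6.25%, against 7.29%). With any other library left out it was 1 (3.12%), below the 6.13% to 8.4% of all genes. With 1 surrogate variable the median was -0.039 and the sign turned for Itga2b (0.044), Itgb3 (0.082), Gp1bb (0.041), Serpine2 (0.084), Mmrn1 (0.10), F2r (0.10), Clec1b (0.20), Cd9 (0.12), Selp (0.27), F5 (0.069), Gng11 (0.16), Mylk (0.075) and Myl9 (0.053), none of which had passed. Selp was at 0.022 without CK2i replicates 2 and 5. Nbeal2 ranged over -0.027 to 0.088 without 1 library. Of the alternative values for single genes 480 kept direction and side of the threshold, 74 lost the call, 38 gained one and 16 turned sign. The 480 include genes that were not called with all libraries and stayed so, and the 74 all belong to the 8 genes that fell. All 8 lost the call without CK2i replicate 2 or 5, without both, or without vehicle replicate 1, 3 or 5. They also lost it with 1 surrogate variable. The causes were not tested.

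Over all genes, the deviations of samples with the same replicate number correlated at -0.16 to 0.23, and those of other pairs at -0.20 to 0.25. Among the 32 genes, replicate 2 was the lowest of its group for 27 in CK2i and 27 in vehicle libraries. Whether the numbers mark pairs cannot be told from these values. With the number as a replicate block, 1139 genes passed, and 18 of the 32 were lower, against 4.75% of all genes. CPM of low genes, such as Cdh5, are the least precise. Overlapping genes on either strand limit 15 of the 32, since strand use was not stated.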
